A study of Mus musculus with 912 samples.

Results

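The NR4A orphan nuclear receptors are encoded by Nr4a1, Nr4a2 and Nr4a3. These 3 genes were taken by name, and all 3 were present in the count tables, which list 42802 genes, and in the log2(TPM+1) tables, which list 40221 genes (TPM is a transcript level scaled to transcript length and to the library total, so that levels of different genes can be compared on this scale). They were followed in single nuclei of the mouse hippocampus over 8 predicted cell types, over mice with or without exposure to an unfamiliar environment (NE), over nuclei with (FOS+) or without (FOS−) the FOS protein, and over dentate gyrus (DG) nuclei at later times and after re-exposure.

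NR4A proteins are transcription factors with the fold of steroid and retinoid receptors, but their ligand pocket is closed and their activity is set mainly by how much of the protein is made. Their genes are immediate early genes: calcium and cyclic AMP signals after neuronal firing act through CREB and related factors on sites close to the transcription start, and the transcripts appear and decay within hours. In the hippocampus NR4A function is linked to long-term memory, Nr4a2 (Nurr1) is also needed for midbrain dopamine neurons, and Nr4a1 (Nur77) and Nr4a2 can pair with retinoid X receptors whereas all 3 can bind DNA as single proteins.

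All mice were wild-type C57BL6 females of 7.75 to 9 weeks. Home cage (HC) mice received no exposure, 1 h mice were killed 1 h after 15 min in the NE, 4 h and 5 h mice were killed at those times after a single exposure, and A>A and A>C mice were returned to the same or to a different environment 4 h after the first visit and killed 1 h after the last. Every nucleus was 1 sample, sorted by antibodies to FOS and to the cell field markers PROX1 and CTIP2, and for HC and 1 h mice also to the neuronal protein NEUN. The 4 h, 5 h, A>A and A>C nuclei were DG nuclei sorted without NEUN but as positive for the ARC protein, so these groups are not DG neurons at large, and the A>A and A>C FOS+ gate can hold cells active in both visits as well as cells active only in the second one. Levels below are means of log2(TPM+1) over the nuclei of 1 mouse in 1 group, given where a mouse had at least 2 nuclei, with the SD over mice; mice are named by the number in the labels. The 1 h DG nuclei all came from mouse 3, so no spread between mice is known for them.

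Of 912 nuclei from 29 mice, 818 had at least 100000 aligned reads and 4000 detected genes. A further 35 FOS− nuclei of the HC and 1 h mice with Arc above 2.5 on the log2(TPM+1) scale were set aside, which left 783 nuclei with 142275 to 5885216 counts each. Prox1, the granule cell factor, was above 1 in 79.1% to 97.9% of the nuclei of the DG groups. It was above 1 in none of the CA1 nuclei at 1 h. Vip, an interneuron gene, was above 1 in 27 of 27 FOS+, 15 of 17 FOS− and 18 of 22 HC VIP nuclei. Gad2, a marker of GABAergic cells, was above 1 in 0 of 26 FOS+ and 1 of 27 FOS− DG nuclei at 1 h. In HC DG nuclei it was so in 0 of 25, at 4 h in 7 of 68 and at 5 h in 9 of 59. After A>A it was so in 17 of 130 FOS+ and 10 of 129 FOS− nuclei. After A>C it was so in 6 of 48 and 7 of 46. The neuronal gene Rbfox3 was above 1 in 15 of 26 FOS+ and 25 of 27 FOS− DG nuclei at 1 h. At 4 h it was so in 21 of 68 and at 5 h in 18 of 59. The 5 HC nuclei predicted as Th, which in the study stands for thalamus, had Vip above 1 in 5 and Gad2 in 0. The median over nuclei of the summed log2(TPM+1) of 8 glia genes was 7.39 in FOS+ and 7.45 in FOS− DG nuclei at 1 h, 3.53 and 3.73 in CA1, and 4.39 and 4.80 after A>A. It was further apart in VIP (4.65 in FOS+ and 3.00 in FOS−), in A>C (2.70 and 4.68) and in CA3 (9.19 and 3.02), and its part in the results of these groups was not tested.

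Nr4a1 lies on chr15:101254269-101274795 (plus strand), Nr4a2 on chr2:57106830-57124003 (minus strand) and Nr4a3 on chr4:48045153-48086447 (plus strand) of GRCm38, and none of the 3 overlaps another annotated gene there. Because CREB is a known regulator of these genes, the 250 bases before each RefSeq start were read for letters of the cyclic AMP response element (CRE). The core TGACG, counted on both strands (CGTCA on the other strand), occurred 4 times in each of the 3 windows. Of 32851 RefSeq windows of the same length, 17.8% held the core at all and 0.137% held it 4 times or more. The windows of Nr4a1, Nr4a2 and Nr4a3 were 74.4%, 80.0% and 63.6% G or C. These shares are over windows of any base composition, and a comparison with windows of like composition was not made. The full palindrome TGACGTCA was in none of the 3 windows (1.55% of all windows), and neither was AAAGGTCA, the element that NR4A proteins bind as single molecules (1.34% of all windows). TATAAA, also counted on both strands, was found once, at position -164 relative to the start of Nr4a2 (12.4% of all windows). It lies on the other strand there and reads TTTATA on the strand of the gene. The windows are shown 5′ to 3′ on the strand of the gene (RefSeq, GRCm38.p6) with the CRE cores in capitals. They lie at chr15:101266596-101266845 for Nr4a1, which is inside the span of its longest transcripts, and at chr2:57124004-57124253 for Nr4a2. For Nr4a3 the bases chr4:48045055-48045152 are shown, which stop before the first exon of another annotated transcript, and its core at position -147 relative to the RefSeq start falls beyond the bases shown.
Nr4a1: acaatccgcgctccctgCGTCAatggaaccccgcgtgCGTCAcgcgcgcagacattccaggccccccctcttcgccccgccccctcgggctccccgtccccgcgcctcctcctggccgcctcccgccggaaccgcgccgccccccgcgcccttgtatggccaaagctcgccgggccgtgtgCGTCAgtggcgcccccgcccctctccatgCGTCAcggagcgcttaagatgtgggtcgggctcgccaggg
Nr4a2: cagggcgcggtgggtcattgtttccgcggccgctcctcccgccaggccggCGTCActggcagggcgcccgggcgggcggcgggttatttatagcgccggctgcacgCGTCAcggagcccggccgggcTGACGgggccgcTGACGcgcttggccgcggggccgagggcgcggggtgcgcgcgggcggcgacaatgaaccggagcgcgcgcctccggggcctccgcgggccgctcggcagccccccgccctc
Nr4a3: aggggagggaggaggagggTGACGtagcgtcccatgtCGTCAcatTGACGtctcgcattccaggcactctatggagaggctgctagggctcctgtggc
The cores stood at positions -233, -213, -69 and -40 relative to the start in Nr4a1, -200, -144, -123 and -111 in Nr4a2, and -231, -213, -205 and -147 in Nr4a3, so that only Nr4a1 had cores within the last 100 bases. A match to these letters is a description of the sequence and not a measured binding site.

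In DG neurons 1 h after the NE, all 3 transcripts were high in the FOS+ nuclei of mouse 3 and low in its FOS− nuclei and in HC mice. Nr4a2 had the highest level, with a mean of 7.53 over 26 FOS+ nuclei against 1.08 over 27 FOS− nuclei of the same mouse and 1.24 and 0.28 in HC mice 6 and 7. Nr4a3 was at 5.67 in FOS+, 1.01 in FOS−, and 0.73 and 0.14 in the HC mice. Nr4a1 was at 5.31 in FOS+, 0.33 in FOS−, and 0.45 and 0.37 in the HC mice. For all 3 genes the FOS+ mean of mouse 3 was above each FOS− and HC mean, as for 19.4% of all genes.

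The same contrast was seen in how many DG nuclei held each transcript. A nucleus was called positive at log2(TPM+1) above 1. Nr4a2 was positive in 25 of 26 FOS+ nuclei (96.2%, exact binomial 95% interval 80.4% to 99.9%), Nr4a3 in 21 (80.8%, 60.6% to 93.4%) and Nr4a1 in 19 (73.1%, 52.2% to 88.4%); these intervals cover counting error among the nuclei only. In the FOS− nuclei Nr4a2 and Nr4a3 were each positive in 10 of 27 (37.0%) and Nr4a1 in 3 (11.1%). The median level of the Nr4a1-positive nuclei was 8.07 in FOS+ and 1.19 in FOS−. Nr4a1 was thus rarely above 1 in FOS− granule cells, but a count of it was found in 11 of 27 (40.7%), against 23 of 26 FOS+ nuclei (88.5%). The level in FOS− nuclei was low: the summed counts were 17 over 27 FOS− nuclei and 14378 over 26 FOS+ nuclei, or 0.435 and 409 CPM (counts scaled to the library total, without regard to transcript length). For Nr4a2 the corresponding values were 28.2 and 840 CPM, and for Nr4a3 6.55 and 292 CPM.

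In edgeR on counts summed per mouse and group, none of these DG differences passed an adjusted p of 0.05 over all genes. FOS+ against FOS− gave a log2 fold change of 10.16 ± 3.06 (SE) for Nr4a1 (p = 0.00346, adjusted p = 0.872), 5.20 ± 3.13 for Nr4a2 and 5.78 ± 3.03 for Nr4a3 (adjusted p = 1.00 for both). Of all genes tested in this contrast, 0.0451% passed the adjusted threshold and 3.02% had an unadjusted p under 0.05. FOS+ against HC gave 6.51 ± 1.93 for Nr4a1 (adjusted p = 0.345), 6.31 ± 2.44 for Nr4a2 (adjusted p = 0.648) and 6.50 ± 2.31 for Nr4a3 (adjusted p = 0.539), in a contrast where 0.27% of genes passed and 5.9% had an unadjusted p under 0.05. With 1 mouse in the 1 h groups these fits take the spread of the other DG groups for it. The 1 h DG nuclei all carried a date that no HC nucleus carried, so in the contrasts with HC exposure and date cannot be told apart. The estimates against HC also depended on the 2 HC mice: without mouse 6 they were 9.45, 12.06 and 10.53 for Nr4a1, Nr4a2 and Nr4a3, and without mouse 7 they were 5.64, 5.34 and 5.57. DESeq2 and limma, run as alternatives, called all 3 genes in FOS+ against HC, where they called 10.1% and 3.1% of all genes. In FOS+ against FOS− both called Nr4a1 and limma also called Nr4a3, where DESeq2 called 5.87% and limma 0.594% of all genes. The log2 fold changes of FOS− nuclei at 1 h against HC were -3.65 ± 2.20, 1.11 ± 2.20 and 0.72 ± 2.09 for Nr4a1, Nr4a2 and Nr4a3 (adjusted p = 1.00 for each), in a contrast where 0.0041% of genes passed.

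**Figure D1:**
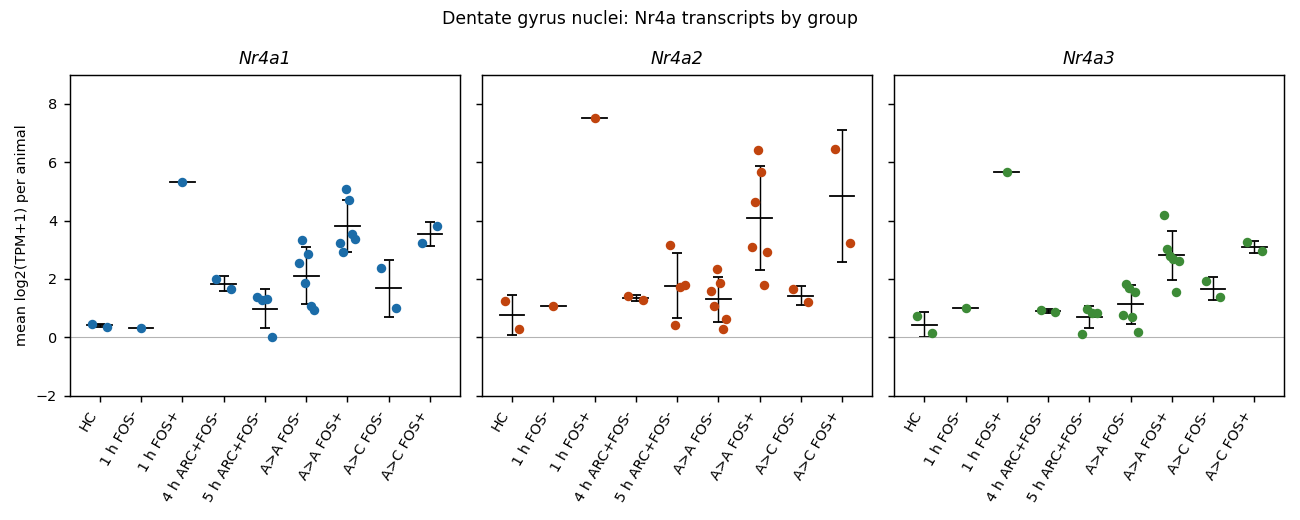
Mean log2(TPM+1) of Nr4a1, Nr4a2 and Nr4a3 (vertical axes) in the 9 groups of DG nuclei (horizontal axis). Each point is 1 mouse, and bars give the mean ± SD over mice. The 1 h FOS+ point lies highest for each gene, at 5.31, 7.53 and 5.67, the A>A and A>C FOS+ groups follow, and HC and 1 h FOS− lie near the bottom.

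In CA1 pyramidal neurons, where 3 mice gave both FOS states, all 3 transcripts were again higher in FOS+ nuclei. Nr4a1 was at 4.22, 6.21 and 5.27 in the FOS+ nuclei of mice 10, 2 and 4 and at 0.28, 1.10 and 0.11 in their FOS− nuclei. Nr4a2 was at 5.69, 6.21 and 6.55 in FOS+ and 1.36, 1.18 and 0.53 in FOS−. Nr4a3 was at 5.04, 6.44 and 6.64 in FOS+ and 2.19, 1.73 and 2.65 in FOS−. Every FOS+ value was above every FOS− value for each gene, a separation that 4.5% of all genes showed.

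Group means in CA1 were 5.23 ± 1.00 (SD, n = 3 mice) in FOS+ and 0.49 ± 0.53 in FOS− for Nr4a1, 6.15 ± 0.43 and 1.02 ± 0.44 for Nr4a2, and 6.04 ± 0.87 and 2.19 ± 0.46 for Nr4a3. Within a mouse, the FOS+ mean exceeded the FOS− mean by 3.94 to 5.16 for Nr4a1, 4.34 to 6.03 for Nr4a2 and 2.85 to 4.70 for Nr4a3. With 3 mice against 3 an exact permutation test cannot go below p = 0.1. The edgeR log2 fold changes were 5.34 ± 2.06 for Nr4a1 (p = 0.0293), 4.91 ± 1.56 for Nr4a2 (p = 0.0120) and 3.03 ± 1.21 for Nr4a3 (p = 0.0337), with an adjusted p of 1.00 for each. In this contrast edgeR called 0% of genes at the adjusted threshold and 4.34% at an unadjusted p under 0.05. Among the alternatives DESeq2 called Nr4a2 (adjusted p = 0.0338), in a contrast where it called 1.62% of all genes.

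The CA1 nuclei of HC mice that were kept after the Arc threshold held some of each transcript. In HC mice 3, 4 and 8, Nr4a1 was at 1.22, 1.92 and 0.39, Nr4a2 at 1.05, 2.94 and 2.24, and Nr4a3 at 2.27, 2.96 and 1.28. All FOS+ means lay above these (4.94% of all genes did so), with edgeR log2 fold changes of 3.30 ± 1.87, 3.61 ± 1.47 and 2.49 ± 1.18 and adjusted p = 0.998 for each, where 0% of genes passed and 4.8% had an unadjusted p under 0.05. In the 19 CA1 nuclei of HC mice that were kept, Nr4a2 was positive in 10 (52.6%), Nr4a3 in 8 (42.1%) and Nr4a1 in 5 (26.3%). Another 16 HC CA1 nuclei had been set aside for high Arc, and of these Nr4a2 was positive in 11, Nr4a3 in 12 and Nr4a1 in 11. The HC shares therefore depend on that threshold. In the FOS− CA1 nuclei at 1 h, Nr4a3 was the most frequent of the 3, positive in 12 of 21 (57.1%), against 6 (28.6%) for Nr4a2 and 3 (14.3%) for Nr4a1. In FOS+ nuclei the shares were 87.9% for Nr4a3, 87.9% for Nr4a2 and 84.8% for Nr4a1. After every nucleus was thinned to 100000 counts, a count was found in 23.8%, 19.0% and 14.3% of the FOS− nuclei at 1 h for Nr4a3, Nr4a2 and Nr4a1. The genes were read in the same nuclei, and any count after thinning is another measure than a level above 1. These shares therefore do not test the lead of Nr4a3 for an effect of depth. Single nuclei weighed heavily in FOS− sums: 1 nucleus of mouse 2 held 86.2% of that mouse's Nr4a1 counts.

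The FOS− values in CA1 depended on the Arc threshold. The 11 FOS− nuclei set aside for high Arc had mean levels of 4.63 for Nr4a1, 2.90 for Nr4a2 and 3.56 for Nr4a3, and with them the FOS− means were 1.76 ± 1.46, 1.51 ± 0.87 and 2.25 ± 0.92 (SD, n = 3 mice). The FOS+ means stayed above these for each gene, but the edgeR log2 fold change of Nr4a1 between FOS+ and FOS− was then 1.52 ± 1.81, against 3.92 ± 1.30 for Nr4a2 and 2.51 ± 1.28 for Nr4a3 (adjusted p = 1.00 for each).

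Subiculum nuclei showed a less uniform difference. Nr4a1 was at 1.85, 5.08 and 7.05 in the FOS+ nuclei of mice 10, 2 and 4 and at 0, 2.92 and 2.03 in FOS−. Nr4a2 was at 3.02, 5.60 and 6.64 in FOS+ and 3.30, 3.32 and 2.96 in FOS−. Nr4a3 was at 5.09, 3.03 and 6.66 in FOS+ and 0.13, 0.93 and 5.71 in FOS−. FOS+ was higher within all 3 mice for Nr4a1 and Nr4a3 and within 2 of 3 for Nr4a2, but the ranges overlapped for each gene, where 4.02% of all genes separated fully. The groups held 11 FOS+ and 12 FOS− nuclei, and the edgeR log2 fold changes were 0.51 ± 1.72, 0.60 ± 1.31 and 1.79 ± 1.99 (adjusted p = 1.00 for each). HC subiculum was at 2.43 and 1.63 for Nr4a1, 1.93 and 1.53 for Nr4a2, and 2.28 and 1.31 for Nr4a3 in mice 4 and 8.

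In CA3 nuclei Nr4a3 had the highest mean of the 3 genes in each mouse and FOS state. Its FOS+ mean was above the FOS− mean in mouse 4 but not in mouse 10. It was at 4.15 and 5.67 in the FOS+ nuclei of mice 10 and 4, at 4.37 and 2.69 in their FOS− nuclei, and at 5.86 in 2 HC nuclei of mouse 8. It was positive in 9 of 13 FOS+, 7 of 10 FOS− and 3 of 3 HC nuclei. The other 2 genes were lower: Nr4a1 was at 1.61 and 1.89 in FOS+ and 0.17 and 1.58 in FOS−, and Nr4a2 at 1.74 and 4.53 in FOS+ and 0.32 and 1.99 in FOS−. Only for Nr4a1 did the FOS+ and FOS− means not overlap, as for 14.8% of all genes. The edgeR log2 fold changes of 1.52 ± 2.14, 1.17 ± 2.23 and 1.57 ± 1.22 did not pass (adjusted p = 1.00, 1.00 and 0.851), and the 3 HC nuclei are too few to test. The summed glia markers given above were higher in FOS+ than in FOS− CA3 nuclei.

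**Figure D2:**
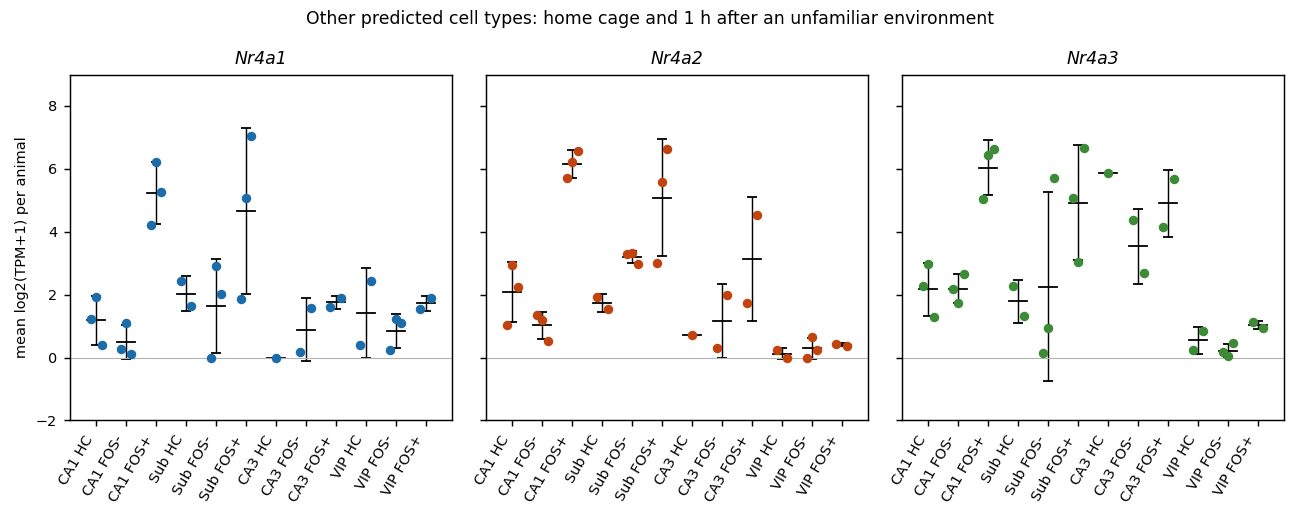
Mean log2(TPM+1) of the 3 genes (vertical axes) in HC, FOS− and FOS+ nuclei of CA1, subiculum (Sub), CA3 and VIP cells (horizontal axes). Each point is 1 mouse with the mean ± SD over mice. CA1 FOS+ lies between 4.22 and 6.64 for every gene and mouse, and VIP FOS+ between 0.38 and 1.90. In CA3, Nr4a3 runs from 2.69 to 5.86 over the 3 states.

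VIP interneurons, GABAergic cells that mostly inhibit other interneurons, held little of any of the 3 transcripts even when FOS+. Nr4a1 was at 1.54 and 1.90 in the FOS+ nuclei of mice 4 and 5 and at 0.23, 1.21 and 1.09 in the FOS− nuclei of mice 2, 4 and 5. Nr4a3 was at 1.13 and 0.93 in FOS+ and 0.16, 0.04 and 0.45 in FOS−. Nr4a2, the highest of the 3 in FOS+ DG nuclei, was at 0.44 and 0.38 in FOS+ and 0, 0.64 and 0.23 in FOS−. The FOS+ and FOS− means did not overlap for Nr4a1 and Nr4a3, as for 11.4% of all genes, and overlapped for Nr4a2.

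Of 27 FOS+ VIP nuclei, 25.9% were positive for Nr4a1, 22.2% for Nr4a2 and 29.6% for Nr4a3. The positive nuclei differed in level between the genes: their median was 6.79 for Nr4a1, 2.81 for Nr4a3 and 1.27 for Nr4a2. In edgeR Nr4a3 gave a log2 fold change of 4.47 ± 1.52 (p = 0.0229, adjusted p = 0.816) and Nr4a1 2.14 ± 1.78 (adjusted p = 1.00), and Nr4a2 was not tested because its counts were under the filter. The summed Nr4a3 counts behind this estimate were 201 and 18 in FOS+ and 2, 1 and 1 in FOS−. In the VIP contrast 0% of genes passed and 5.67% had an unadjusted p under 0.05. HC VIP nuclei of mice 4 and 5 were at 0.40 and 2.43 for Nr4a1, 0.25 and 0 for Nr4a2, and 0.25 and 0.85 for Nr4a3, so the FOS+ means of Nr4a1 lay between the 2 HC values.

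The remaining predicted types, Pvalb and Ivy interneurons and Th, were few. In 4 FOS+ Pvalb nuclei Nr4a1 was at 3.25 and 3.15 in mice 10 and 4, positive in 1 of 2 nuclei of each, while Nr4a2 was at 1.22 and 0.15 and Nr4a3 at 0.13 and 0.12. In 3 HC Pvalb nuclei no Nr4a1 count was found. Among 7 FOS− Ivy nuclei, Nr4a1 was at 4.01 in mouse 4 and 0 in mouse 5. The 5 HC Th nuclei held no Nr4a1 count, and their Nr4a2 and Nr4a3 means were 0.33 and 0.22. No test was made in these groups.

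The contrast between FOS+ and FOS− nuclei was then set against itself across DG, CA1 and VIP, as interaction terms in edgeR. Nr4a2 had a difference larger in CA1 than in VIP by 5.92 ± 2.63 on the log2 scale (p = 0.0408, adjusted p = 0.815), and larger in DG than in VIP by 6.27 ± 3.63 (p = 0.105). Between DG and CA1 its difference was 0.35 ± 3.07. For Nr4a1 the DG difference exceeded that of VIP by 8.00 ± 4.23 (p = 0.0788) and that of CA1 by 4.88 ± 3.73, an estimate that was 8.61 with no Arc filter and 0.24 with limma. For Nr4a3 the interactions were 2.79 ± 2.66 for DG against CA1, 1.17 ± 2.86 for DG against VIP and -1.62 ± 1.99 for CA1 against VIP. None of the 9 interactions passed the adjusted threshold, which 0.00457% of genes passed for DG against CA1, 0.00457% for DG against VIP and 0% for CA1 against VIP, where 6.03% had an unadjusted p under 0.05.

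**Figure D3:**
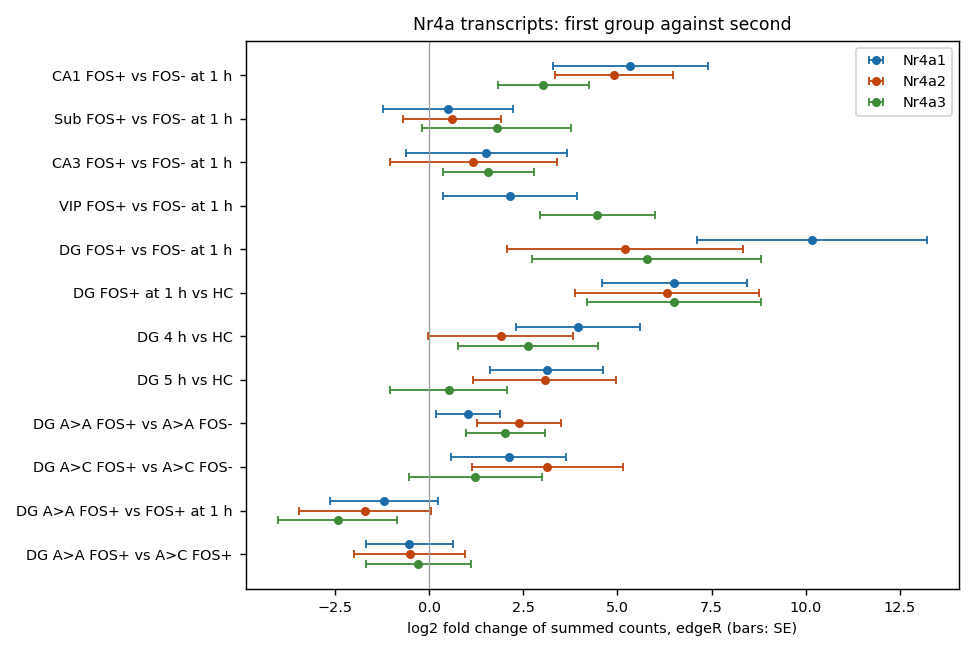
edgeR log2 fold changes (horizontal axis) of the 3 genes with bars of 1 SE for 12 comparisons (vertical axis), on counts summed per mouse and group. FOS+ minus FOS− estimates are positive in each cell type tested, from 0.51 for Nr4a1 in subiculum to 10.16 for Nr4a1 in DG at 1 h, and Nr4a2 in VIP has no estimate.

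At 4 h after a single exposure, the means of FOS− ARC+ granule cells lay below those of FOS+ cells at 1 h and above those of HC cells. In mice 17 and 21 Nr4a1 was at 2.01 and 1.66, Nr4a2 at 1.43 and 1.29 and Nr4a3 at 0.95 and 0.86. All these means lay above both HC means for each gene, but 17.9% of all genes did so. The edgeR log2 fold changes against HC were 3.96 ± 1.65 for Nr4a1 (p = 0.0262, adjusted p = 0.824), 1.90 ± 1.92 for Nr4a2 and 2.62 ± 1.86 for Nr4a3, where the median of all genes was 0.23. With DESeq2's size factors that median was 0. Without HC mouse 6 the estimates were 6.89, 7.65 and 6.66, and without HC mouse 7 they were 3.09, 0.93 and 1.69 for Nr4a1, Nr4a2 and Nr4a3. Of all genes tested at 4 h against HC, 0.246% passed the adjusted threshold and 5.58% had an unadjusted p under 0.05. Against FOS+ cells at 1 h they were -2.56 ± 1.72, -4.41 ± 2.28 and -3.87 ± 2.11 (adjusted p = 1.00 for each, in a contrast where 0.0164% of genes passed). limma called Nr4a3 there, together with 0.166% of all genes.

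At 5 h the 3 genes took different courses in the 4 mice. Nr4a1 was at 1.37, 1.28, 1.31 and 0 in mice 22, 23, 8 and 9 (0.99 ± 0.66, SD, n = 4). Nr4a2 was at 3.15, 0.43, 1.72 and 1.80 (1.77 ± 1.11), and Nr4a3 at 0.13, 0.96, 0.85 and 0.82 (0.69 ± 0.38). Mouse 9 had no Nr4a1 count in 21 nuclei, which allows a share of up to 14.3%, and its nuclei were shallow, with a median of 350943 counts against 381170 in mouse 8, 1555740 in mouse 23 and 1776120 in mouse 22. The 5 h and HC means overlapped for each gene, where 4.38% of all genes were higher in every 5 h mouse than in both HC mice. In the 4 h against the 5 h group Nr4a1 alone separated, the 4 h mice being higher, as for 10.7% of all genes. The edgeR log2 fold changes of 5 h against HC were 3.12 ± 1.50 (p = 0.0504, adjusted p = 0.488), 3.07 ± 1.89 and 0.52 ± 1.55 for Nr4a1, Nr4a2 and Nr4a3, in a contrast where 0.262% of genes passed. Without HC mouse 6 they were 6.06, 8.81 and 4.55. Those of 5 h against 4 h were -0.84 ± 1.23, 1.17 ± 1.70 and -2.11 ± 1.46, where 0% passed.

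The share of positive nuclei at these times ranked the genes differently. At 4 h Nr4a1 was positive in 29.4% of 68 nuclei, Nr4a2 in 23.5% and Nr4a3 in 20.6%. At 5 h Nr4a2 was positive in 42.4% of 59 nuclei, against 11.9% for Nr4a1 and 16.9% for Nr4a3, but the median level of the Nr4a2-positive nuclei was 2.27 at 5 h and 6.09 at 4 h. The 5 h nuclei were shallower, with a median of 426841 counts against 2469300 at 4 h, so the shares above 1 were not taken at equal depth. Thinned to 100000 counts, the 5 h nuclei held a count of Nr4a2 in 27.1%, of Nr4a1 in 11.9% and of Nr4a3 in 11.9%. The thinned 4 h nuclei held a count of Nr4a2 in 20.6%, of Nr4a1 in 25.0% and of Nr4a3 in 11.8%.

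After re-exposure to the same environment (A>A), FOS+ granule cells had more of all 3 transcripts than FOS− granule cells of the same exposure. Nr4a1 ran from 2.91 to 5.09 over 6 mice in FOS+ (median 3.45) and from 0.93 to 3.35 over 6 mice in FOS− (median 2.22). Nr4a2 ran from 1.81 to 6.41 in FOS+ (median 3.86) and from 0.30 to 2.35 in FOS− (median 1.34). Nr4a3 ran from 1.54 to 4.19 in FOS+ (median 2.73) and from 0.19 to 1.84 in FOS− (median 1.17). The ranges overlapped for each gene, and 1.04% of all genes separated fully.

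The A>A differences were tested on the means per mouse. Nr4a1 was higher in FOS+ by 1.70 (exact permutation test, two-sided, p = 0.00866, n = 6 and 6), at 3.81 ± 0.88 against 2.11 ± 0.98. Nr4a2 was higher by 2.78 (exact permutation p = 0.00649), at 4.08 ± 1.77 against 1.30 ± 0.78. Nr4a3 was higher by 1.68 (exact permutation p = 0.00866), at 2.80 ± 0.85 against 1.13 ± 0.67. These are 3 of 9 permutation tests made, and the smallest p that this design allows is 0.00216. The test takes the groups as independent, although mice 24 to 27 are in both. Mice 15 and 16 gave FOS+ nuclei only and mice 19 and 20 FOS− nuclei only, so for these the FOS state and the mouse cannot be told apart. Ages ran from 8.85 to 9 weeks in the FOS+ group and from 7.75 to 8.875 weeks in the FOS− group. FOS+ nuclei of mice 15 and 16 were shallower than the rest, with medians of 767842 and 807528 counts against 1703830 to 2285990 in mice 24 to 27, and after thinning every nucleus to 100000 counts the differences were 1.97 for Nr4a1, 3.03 for Nr4a2 and 1.56 for Nr4a3 on the log2(CPM+1) scale.

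Within those 4 mice, which gave both FOS states on the same sort, Nr4a1 was higher in FOS+ in 4 of 4 by 1.86 to 3.21 (mean 2.49), Nr4a2 in 4 of 4 by 1.51 to 4.05 (mean 2.91), and Nr4a3 in 3 of 4, by -0.03 to 2.41 (mean 1.36). An exact sign-flip permutation test gave p = 0.125, 0.125 and 0.25, of which 0.125 is the smallest that 4 mice allow. In edgeR on summed counts the log2 fold changes were smaller, at 1.02 ± 0.85 for Nr4a1 (adjusted p = 0.689), 2.38 ± 1.13 for Nr4a2 (p = 0.0472, adjusted p = 0.316) and 2.02 ± 1.05 for Nr4a3 (adjusted p = 0.371), and none passed the threshold that 0.041% of genes passed, while 15.4% had an unadjusted p under 0.05. limma on the means per mouse called all 3, with adjusted p = 0.0481, 0.0275 and 0.0122 for Nr4a1, Nr4a2 and Nr4a3, in a contrast where it called 1.67% of all genes.

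**Figure D4:**
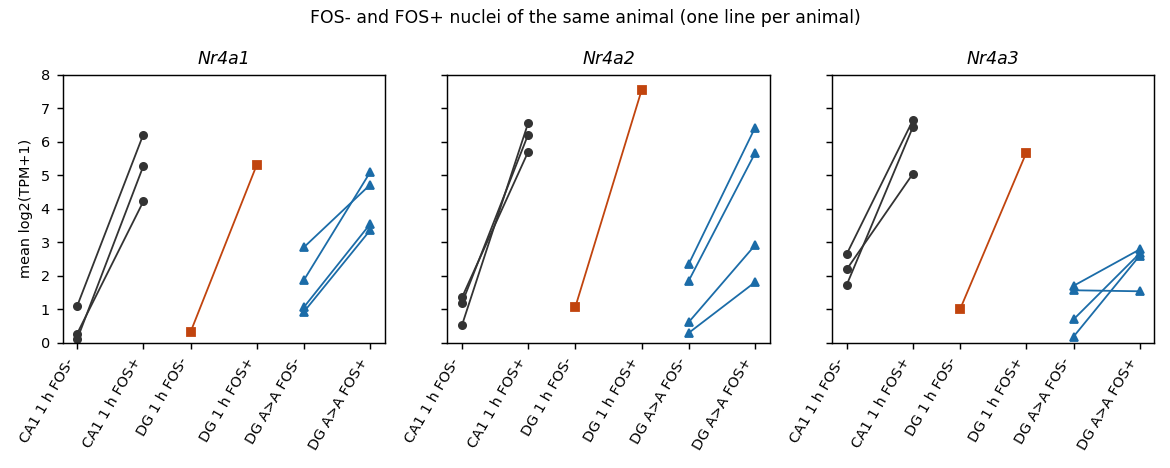
Mean log2(TPM+1) (vertical axes) in the FOS− and FOS+ nuclei of the same mouse, joined by a line, for CA1 at 1 h (3 mice), DG at 1 h (1 mouse) and DG after A>A (4 mice). All lines for Nr4a1 and Nr4a2 go up, as do those of Nr4a3 except A>A mouse 26, at 1.57 in FOS− and 1.54 in FOS+.

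Mice differed in which transcript they held after A>A. Nr4a2 was at 6.41 and 5.65 in the FOS+ nuclei of mice 24 and 25, and at 1.81 and 2.91 in those of mice 26 and 27, which were sorted on another date. Nr4a1 was at 5.09 and 4.72 in mice 24 and 25 and at 3.54 and 3.36 in mice 26 and 27, and their FOS− nuclei kept the same order, at 1.88 and 2.85 against 1.07 and 0.93. Nr4a3 had the same order by date in FOS+ nuclei, at 2.79 and 2.67 in mice 24 and 25 and at 1.54 and 2.60 in mice 26 and 27, although mice 25 and 27 were close. Its FOS− nuclei did not keep this order, at 1.70 and 0.70 against 1.57 and 0.19. Mouse 15, from a further sort with FOS+ nuclei only, had the highest Nr4a3 of all, at 4.19.

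A re-exposed mouse is 5 h from its first visit, so the 5 h mice are a comparison without re-exposure. All 5 h nuclei were sorted as FOS−, so that between A>A FOS+ and 5 h nuclei the FOS sort and the re-exposure cannot be told apart, and only the A>A FOS− nuclei were sorted in the same way as the 5 h nuclei. A>A FOS+ means were above 5 h means by 2.82 for Nr4a1 (exact permutation p = 0.00952, n = 6 and 4), by 2.12 for Nr4a3 (exact permutation p = 0.00952) and by 2.31 for Nr4a2 (exact permutation p = 0.0667), where 0.00952 is the smallest p possible. Nr4a1 and Nr4a3 did not overlap between these groups, as for 2.85% of all genes, whereas Nr4a2 in 5 h mouse 22, at 3.15, was above 3 of the 6 A>A FOS+ means. Between A>A FOS− and 5 h cells, differences were 1.12 for Nr4a1 (exact permutation p = 0.105), -0.47 for Nr4a2 (exact permutation p = 0.448) and 0.44 for Nr4a3 (exact permutation p = 0.314). The ranges overlapped for each gene, with 0.911% of all genes separating. All p values of these comparisons with 5 h nuclei are unadjusted.

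After exposure to a different environment (A>C), FOS+ cells of mice 13 and 14 were at 3.24 and 3.83 for Nr4a1, 6.44 and 3.23 for Nr4a2, and 3.25 and 2.96 for Nr4a3. FOS− cells of mice 11 and 12 were at 2.36 and 0.99, 1.65 and 1.20, and 1.94 and 1.40. Every FOS+ mean was above every FOS− mean for each of the 3 genes, as for 13.3% of all genes, but the FOS+ and FOS− mice were sorted on different dates, so that date and FOS state cannot be told apart. An exact permutation test of 2 against 2 mice cannot go below p = 0.333. The edgeR log2 fold changes were 2.11 ± 1.52, 3.14 ± 2.01 and 1.22 ± 1.77 for Nr4a1, Nr4a2 and Nr4a3 (adjusted p = 0.916, 0.899 and 1.00).

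No difference between the 2 kinds of re-exposure was detected in FOS+ cells. A>A minus A>C gave log2 fold changes of -0.53 ± 1.16 for Nr4a1, -0.52 ± 1.47 for Nr4a2 and -0.29 ± 1.40 for Nr4a3 (edgeR, adjusted p = 1.00 for each, with 0% of genes called and 4.94% at an unadjusted p under 0.05). The SE of over 1 log2 unit leaves room for differences of several fold in either direction. A>A FOS+ cells were lower than FOS+ cells at 1 h by estimates of -1.20 ± 1.43, -1.70 ± 1.76 and -2.43 ± 1.58 for Nr4a1, Nr4a2 and Nr4a3, which also did not pass (adjusted p = 1.00, in a contrast where 0.0246% of genes passed).

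Ranked over the 9 DG groups, 1 h FOS+ was highest for each gene, followed by the 2 re-exposed FOS+ groups, whose ranges overlapped for each gene. For Nr4a1 the order then ran A>A FOS− (2.11), 4 h (1.84), A>C FOS− (1.68), 5 h (0.99), HC (0.41) and 1 h FOS− (0.33). For Nr4a2 it ran 5 h (1.77), A>C FOS− (1.42), 4 h (1.36), A>A FOS− (1.30), 1 h FOS− (1.08) and HC (0.76). For Nr4a3 it ran A>C FOS− (1.67), A>A FOS− (1.13), 1 h FOS− (1.01), 4 h (0.91), 5 h (0.69) and HC (0.44). Most neighbours in the lower part of each order overlapped between mice, so these ranks are a description. HC or 1 h FOS− cells stood last for each gene.

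Many FOS+ nuclei held the 3 transcripts together. All 3 were positive in 24 of 33 FOS+ CA1 nuclei (72.7%) and 17 of 26 FOS+ DG nuclei at 1 h (65.4%), against 1 of 21 FOS− CA1 nuclei (4.76%) and 0 of 27 FOS− DG nuclei, which allows a share of up to 11.1%. After re-exposure the share was 24.6% of 130 A>A FOS+ nuclei, 20.8% of 48 A>C FOS+ nuclei, 8.53% of 129 A>A FOS− nuclei and 8.70% of 46 A>C FOS− nuclei. At least 1 of the 3 was positive in 100% of FOS+ DG nuclei at 1 h, 84.6% after A>A and 95.8% after A>C. None of 27 FOS+ VIP nuclei held all 3, which allows a share of up to 11.1%, and 63.0% held at least 1.

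The highest transcript of a nucleus differed between groups. Nr4a2 was highest in 16 of 26 FOS+ DG nuclei at 1 h and in 52 of the 130 A>A FOS+ nuclei, where Nr4a1 was highest in 36 and Nr4a3 in 22. In A>A FOS− nuclei Nr4a1 led, in 34 of 129, before Nr4a2 in 19 and Nr4a3 in 13. In FOS− CA1 nuclei at 1 h Nr4a3 was highest in 11 of 21, and in 10 of these it was the only one of the 3 that was positive.

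**Figure D5:**
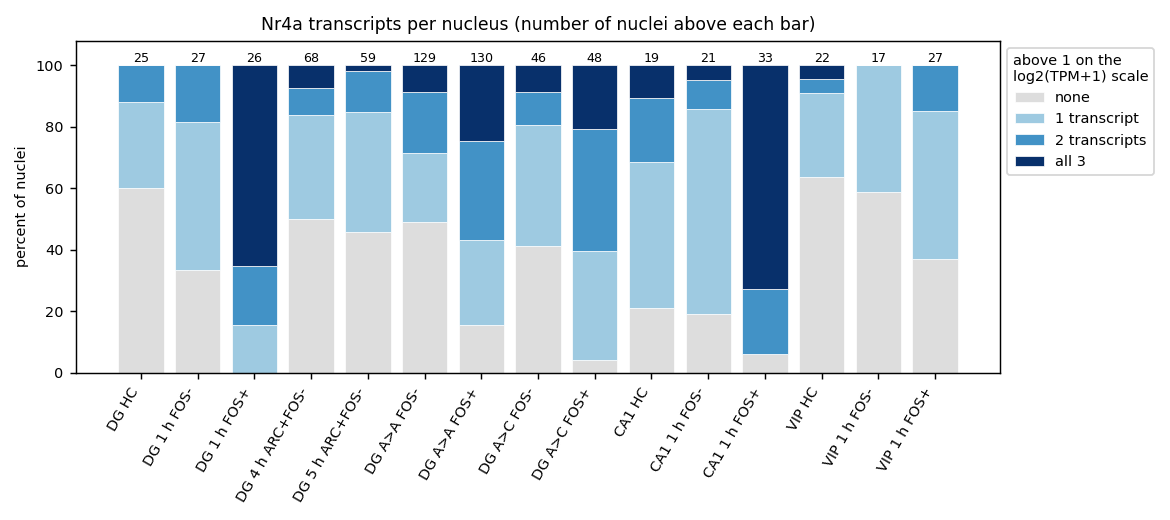
Percent of nuclei (vertical axis) with none, 1, 2 or all 3 of the transcripts above 1 on the log2(TPM+1) scale, as stacked bars by group (horizontal axis). At 1 h the FOS+ nuclei with all 3 made up 72.7% in CA1 and 65.4% in DG, after A>A the share was 24.6%, and no FOS+ VIP nucleus held all 3.

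The Fos transcript, whose protein defined the sort, was positive in fewer nuclei than each Nr4a transcript in FOS+ DG nuclei at 1 h, CA1 nuclei and A>A nuclei. It was above 1 in 61.5% of FOS+ DG nuclei at 1 h, 48.5% of FOS+ CA1 nuclei and 30.0% of A>A FOS+ nuclei. In FOS+ VIP nuclei it was above 1 in 33.3%, more than any of the 3, and in FOS+ CA3 nuclei in 30.8%, more than Nr4a1 (23.1%). In A>A FOS+ nuclei Nr4a1 was positive in 74.4% of the nuclei with Fos and in 47.3% of those without, and Nr4a3 in 53.8% and 47.3%. Over the 130 nuclei, Pearson's r between log2(TPM+1) values was 0.24 for Nr4a1 with Fos, 0.15 for Nr4a2 and 0.01 for Nr4a3, and 0.19, 0.23 and 0.29 for Nr4a1 with Nr4a2, Nr4a1 with Nr4a3 and Nr4a2 with Nr4a3. These are weak, and the nuclei share mice and differ in depth.

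The retinoid X receptors, the dimer partners, were scarce in granule cells. Rxra had group means of at most 0.04 and Rxrg of at most 0.08 in all 9 DG groups. Rxrb was the highest of the 3 there, at 1.43 ± 0.07 (SD, n = 2) in HC and between 0.22 and 0.70 in the other DG groups. In CA1, Rxrb was at 1.06 ± 0.51 (n = 3) in FOS+ and 0.24 ± 0.27 in FOS− nuclei. Its edgeR log2 fold change there was 5.35 ± 2.16 (adjusted p = 1.00), on 1454 summed counts in FOS+, of which 1242 came from mouse 2, and 18 in FOS−. Rxra was at 1.40 ± 0.87 (n = 2) in FOS+ VIP nuclei, where 7 of 27 nuclei were positive, and at 2.24 ± 0.40 (n = 2) in FOS− Ivy nuclei, where 4 of 7 were. After A>A, Rxra had 1 summed count in all FOS+ nuclei of 6 mice and 78 in all FOS− nuclei, of which 49 came from mouse 26 (edgeR adjusted p = 0.273).

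Among the other gene lists, only immediate early genes had members past the adjusted threshold. In DG, Arc, a synaptic regulator, rose by 10.57 ± 0.93 (log2) in FOS+ against FOS− nuclei at 1 h. The threshold on its transcript set aside 0 FOS− DG nuclei at 1 h and 1 DG nucleus of HC mice. At the later times nuclei were sorted for its protein, so its calls at 4 h and 5 h against HC are not independent of that sort. Atf3, a stress-induced factor, had 0 counts in 25 HC nuclei, so its fold changes are lower bounds set against 3 counts over that group. It was at 358 CPM in FOS+ cells at 1 h, at least 3325-fold higher than in HC (edgeR adjusted p = 0.0156), at 111 CPM at 4 h, at least 1027-fold higher (adjusted p = 0.0291), and at 65.0 CPM at 5 h, at least 605-fold higher (adjusted p = 0.0432). Atf3 had 0 counts in every CA1 group, in contrast to the 3 Nr4a genes. Of the 18 immediate early genes listed, the FOS+ minus FOS− estimate was above 0 for 17 of 18 tested in DG at 1 h (median 4.75), 14 of 15 in CA1 (median 3.84), 17 of 18 after A>A (median 1.50) and 8 of 11 in VIP (median 2.54). The median of all genes was 0 in DG, -0.01 in CA1, -0.02 after A>A and 0.06 in VIP.

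No member of the remaining lists passed in any comparison. Of the CREB, CRTC, MEF2 and SRF factors that act upstream of Nr4a genes, 14 of 14 were tested, with median log2 fold changes of -0.20 in DG at 1 h, 0.03 in CA1 and -0.43 after A>A. The 11 corepressors and coactivators of nuclear receptors had medians of -0.08, 0.52 and -0.11 in the same order. The 12 endoplasmic reticulum chaperones, a set linked to NR4A activity in memory, had medians of 0.41, 0.51 and -0.34, and after A>A 11 of 12 estimates were below 0, although none had an unadjusted p under 0.05. Of 33 other nuclear receptors, 21 to 30 were tested, with medians of -1.11, 0.01 and -0.39. Of 10 genes of the dopaminergic programme that Nr4a2 serves in the midbrain, 3 to 6 were tested, with medians of 0.27, 0.31 and -0.50.

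Over the 61 means per mouse and group, the profiles most like those of the 3 genes were compared among 9633 genes with a mean above 1, leaving out the members themselves. The points share mice and libraries, so the correlations are a description. Nr4a1 was most like 1700016P03Rik (Pearson's r = 0.77), Fos (0.72), Tspan31 (0.68), Prosc (0.67) and Ankrd33b (0.63). Nr4a2 was most like Homer1 (0.77), a synaptic scaffold gene with an activity-induced short form, Fos (0.77), Ifrd1 (0.76), Ankrd33b (0.75) and 1700016P03Rik (0.75). Nr4a3 was most like Psd3 (0.69), 2010111I01Rik (0.67), Galnt9 (0.67), Rprml (0.67) and Fgfr1 (0.67), none of which was among the nearest genes of Nr4a1 or Nr4a2. Among the members, r was 0.76 for Nr4a1 with Nr4a2, 0.68 for Nr4a2 with Nr4a3 and 0.54 for Nr4a1 with Nr4a3, which would put Nr4a2 at rank 2 for both Nr4a1 and Nr4a3.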

How the data were processed

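Nuclei were profiled by SmartSeq2. The authors aligned reads to mm10 with RSEM and Bowtie (versions not given in the sources used here) and deposited expected counts per gene and nucleus and log2(TPM+1) values. Genes without a value in any nucleus (30 in the count tables, 23 in the log2 tables) were dropped, and no 2 nuclei held identical values. Nuclei needed at least 100000 aligned reads, as given in the labels, and 4000 genes above 1 on the log2(TPM+1) scale. FOS− nuclei of HC and 1 h mice with Arc above 2.5 were left out, as in the study. Replicates were mice, told apart by exposure and mouse number in the labels. Expected counts were cut down to whole numbers, so that a value below 1 became 0. They were summed per mouse and group (at least 2 nuclei) and tested by edgeR's quasi-likelihood test (TMM, filterByExpr, Benjamini-Hochberg over all genes, threshold 0.05), with all DG groups in 1 fit. Means of log2(TPM+1) per mouse were compared by exact permutation tests, of which the unadjusted two-sided p is given. For A>A FOS+ against A>A FOS− the edgeR and limma adjusted p over all genes are also given. For the 2 comparisons with 5 h nuclei only the unadjusted p is given. PCR reads carry no molecular identifiers, so shares and intervals (exact Clopper-Pearson, 95%) cover counting error only, and a count of 0 was taken to allow 3 counts.

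Alternatives were DESeq2, limma on the means (genes with a mean of at least 0.1), DESeq2 size factors, no filter on low counts, no threshold for reads or genes, no Arc filter, at least 5 nuclei per sum, mice split by date, a replicate block by mouse, and leaving out each mouse. The fit was tested on simulated data. The text names the 3 genes, the retinoid X receptors, Fos, Arc, the 5 genes most correlated with each member, and the called genes of each list. The members and lists were chosen with earlier results of these data known. Tools were R 4.3.3, edgeR 4.0.16, DESeq2 1.42.0, limma 3.58.1, Python 3.11.15, numpy 2.4.6, pandas 2.3.3 and scipy 1.17.1. Genome positions came from GENCODE (GRCm38) and upstream sequences from RefSeq (GRCm38.p6).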

Additional observations from a re-analysis of the deposited data

Results flagged for a closer look

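Dixon's gap test was run on 18 groups of 4 to 6 values per mouse. These were the means and the shares of nuclei with any count, for each gene in 5 h, A>A FOS+ and A>A FOS− DG nuclei. Means and shares come from the same nuclei, so the groups are not independent. Of the values, 2 stood far from the rest of their group, both of them means, where chance gives about 1 in 20 groups. Both were in DG nuclei at 5 h. Nr4a1 was at 0 in mouse 9, against 1.28 to 1.37 in mice 23, 8 and 22, and no count was found in its 21 nuclei, which were the shallowest of that group. Nr4a3 was at 0.13 in mouse 22, against 0.82 to 0.96 in the other 3 mice, and that mouse had the highest Nr4a2 of the group, at 3.15, over 10 nuclei with a median of 1776120 counts.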

How the results depend on the processing

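In edgeR none of 75 member tests passed an adjusted p of 0.05 (12 had an unadjusted p under 0.05, and the lowest adjusted p was 0.316). DESeq2 called 5: Nr4a2 in CA1 FOS+ against FOS− at 5.00, Nr4a1 in DG FOS+ against FOS− at 10.10 and, in DG FOS+ against HC, Nr4a1 at 6.36, Nr4a2 at 6.18 and Nr4a3 at 6.35 (log2, adjusted p from 6.82e-05 to 0.0424). limma called 9: Nr4a1 (4.98) and Nr4a3 (4.66) in DG FOS+ against FOS−, Nr4a1 (4.90), Nr4a2 (6.77) and Nr4a3 (5.23) in DG FOS+ against HC, Nr4a3 (-4.77) in DG 4 h against FOS+ at 1 h, and Nr4a1 (1.70), Nr4a2 (2.78) and Nr4a3 (1.68) in A>A FOS+ against FOS−. In these contrasts DESeq2 called 1.62% to 10.1% and limma 0.166% to 3.1% of all genes, and the cause of the differences between tools was not tested. Outside the leave-one-out fits, 9 estimates changed sign, all without a call: with limma Nr4a3 in CA1 FOS− against HC (0.022), Nr4a1 in Sub FOS− against HC (-0.38), Nr4a1 in A>A against A>C FOS+ (0.28), Nr4a2 in A>A against A>C FOS− (-0.12) and Nr4a3 in CA1 minus VIP (3.03), with no Arc filter Nr4a1 in CA1 FOS− against HC (0.82) and in CA1 minus VIP (-0.61), with at least 5 nuclei Nr4a2 in CA1 FOS− against HC (2.76), and with DESeq2 size factors Nr4a1 in VIP FOS+ against HC (-0.000405).

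Leaving out each mouse gave ranges that crossed 0 for Nr4a1 in A>A against A>C FOS− (-0.00028 to 1.49), Sub FOS+ against FOS− (-0.23 to 1.73) and VIP FOS+ and FOS− against HC (-0.73 to 2.76 and -2.89 to 0.62). For Nr4a2 they did in 5 h against 4 h (-0.48 to 1.58, below 0 without mouse 22), A>A against A>C FOS+ (-0.93 to 0.052) and FOS− (-0.40 to 0.50), A>A FOS− against 5 h (-1.45 to 0.80) and DG minus CA1 (-0.99 to 1.38). For Nr4a3 they did in CA1, Sub, VIP and DG FOS− against HC (-1.10 to 0.11, -5.10 to 2.72, -1.88 to 0.59 and -0.21 to 4.76), 5 h against HC (-0.86 to 4.55), A>A against A>C FOS+ (-0.65 to 0.058) and FOS− (-1.78 to 0.29) and CA1 minus VIP (-2.54 to 0.31). The permutation test of Nr4a2 in A>A FOS+ against 5 h had an unadjusted p under 0.05 in 3 settings. These were without the threshold for reads or genes (2.62, exact permutation p = 0.0286), without 5 h mouse 22 (2.77, p = 0.0238) and without A>A mouse 26 (2.76, p = 0.048). Its difference ran from 1.84 to 2.77 over all mice left out. The other leave-one-out permutation tests kept their side of an unadjusted p of 0.05.

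With the mouse as a replicate block, the paired estimates were 7.06, 5.34 and 2.82 in CA1 and 2.45, 4.50 and 2.97 in A>A for Nr4a1, Nr4a2 and Nr4a3 (adjusted p from 0.445 to 1.00), and no call changed. Same-mouse deviations correlated weakly, at 0.00248 to 0.0759. In A>A, 10 genes were called by edgeR, 880 by DESeq2 and 293 by limma. Leave-one-out fits of CA3 could not be made, as no residual degrees of freedom were left, and the only 1 h DG mouse could not be left out. With nuclei thinned to equal counts, 38 shares of nuclei with a count moved by more than their spread and 52 did not. With a level above 1 in place of any count, 16 moved and 74 did not.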

Other observations

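The nuclei set aside for high Arc held the 3 transcripts without FOS protein. Among 11 FOS− CA1 nuclei of 1 h mice, Nr4a1 was above 1 in 7, Nr4a2 in 6 and Nr4a3 in 5, and among 16 CA1 nuclei of HC mice the numbers were 11, 11 and 12, with means over nuclei of 3.93 for Nr4a1, 3.73 for Nr4a2 and 4.22 for Nr4a3. With these nuclei included, the HC means of CA1 were 1.70 ± 1.31 for Nr4a1, 2.53 ± 0.46 for Nr4a2 and 2.65 ± 0.96 for Nr4a3 (SD, n = 3 mice). Of 4 HC subiculum nuclei set aside, Nr4a2 was above 1 in 4, at a mean of 5.61, Nr4a1 in 2 and Nr4a3 in 1. These nuclei were chosen by their Arc level, so no comparison with the other nuclei was tested.

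A few nuclei outside the groups with 2 or more nuclei per mouse held single high values. Of 2 FOS+ Ivy nuclei, 1 held Nr4a3 at 7.43, with Nr4a1 at 0 and Nr4a2 at 0.37.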
